A study of Mus musculus with 17 samples.

Results

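The comparison described here is that of livers of AHR knockout mice given TCDD with livers of AHR knockout mice given corn oil. Its members are 6 of the 17 arrays of the study, chosen by their labels alone: 3 of knockout mice given a single gavage of 1000 µg/kg TCDD and 3 of knockout mice given the corn oil vehicle. The other arrays, 6 of wild type mice given the same dose of TCDD and 5 of wild type mice given corn oil, enter for the shared estimate of spread and where the TCDD effects of both genotypes are compared. All mice were male, in a C57BL/6J background, and their livers were taken 19 h after dosing. The Ahr-/- mice were 10 weeks old and came from The Jackson Laboratory, and the Ahr+/+ mice were 15 weeks old and bred in Kuopio from Jackson stock, so age and breeding site cannot be told apart from genotype. Total RNA was hybridised to Affymetrix mouse arrays that read 45037 probe sets beside the control probes. Values are on a log2 scale, on which a difference of 1 is a doubling. The labels number the replicates but do not state that each is a different mouse. The p-values thus speak only for the spread among these arrays, part of which may be technical.

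The aryl hydrocarbon receptor (AHR) is a transcription factor that waits in the cytoplasm until a ligand binds it. TCDD, the most potent dioxin, is such a ligand. The bound receptor enters the nucleus, pairs with its partner ARNT and binds DNA at dioxin response elements, which switches on genes of foreign compound metabolism such as the Cyp1 cytochromes P450. In liver this response is among the strongest known for a xenobiotic receptor, and mice without the receptor are known to resist most dioxin toxicity. A dosed knockout liver therefore addresses which responses to TCDD, if any, do not need the receptor.

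The 6 knockout arrays resembled each other closely. Their pairwise correlation across probe sets lay between 0.994 and 0.997, and the array medians were 3.09 to 3.1 in dosed and 3.11 to 3.13 in corn oil knockout livers. Albumin and the other hepatocyte markers were near the top of the scale on every array, with a mean over the 9 of 11 markers measured of 14.69 to 14.86 in dosed and 14.79 to 14.85 in corn oil livers. The main probe set of Ahr itself (1422631_at, chromosome 12) read 9.45, 9.41 and 9.50 in dosed knockout livers, 9.52, 9.29 and 9.70 in corn oil knockout livers, and 9.44 to 10.42 over all wild type livers. The sources used here do not place this probe set within or outside the deleted part of the gene, so its level checks no label. Scan days were not balanced. Dosed replicates 1 and 2 and corn oil replicate 3 were scanned on day 2, corn oil replicates 1 and 2 on day 1 and dosed replicate 3 on day 3. One wild type array, TCDD replicate 6, stood apart, with a residual SD of 0.319 against 0.124 to 0.173 on the other 16 and a gap between the 3′ and 5′ probe sets of Gapdh of 1.98, against -0.17 to -0.01 on the others. The comparisons of TCDD effects between genotypes, and the counts of genes changed in wild type, are therefore also given without it.

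The known receptor targets came first. Of 21 listed targets 17 were measured, and 15 of these rose in wild type livers after TCDD, with a median difference over the list of 3.07. None was called in knockout livers, where the median was -0.01, against -0.02 over all 18193 genes. A gene or probe set is called here where limma's moderated test gave a Benjamini-Hochberg adjusted p under 0.05 over all probe sets, and in knockout livers 0.0133% of probe sets were called. At an unadjusted p under 0.05, 1 target of 17 passed, Nfe2l2, beside 3.28% of all genes and 2.80% of all probe sets. The difference between the TCDD effects of both genotypes, tested as an interaction, was called for 13 of the 17, beside 1.63% of all genes, and for 12 without wild type TCDD replicate 6. The list was chosen with earlier results of these data known, so its wild type and interaction counts may be partly built in.

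Cyp1a1 encodes the cytochrome P450 that serves as the standard readout of receptor activity (1422217_a_at). It read 12.64, 5.32 and 5.34 in dosed knockout livers, against 6.54, 5.81 and 7.18 in corn oil knockout livers. The first dosed array was thus far above all other knockout arrays, while both other dosed arrays were below every corn oil array. Whether the first array holds RNA of a knockout liver alone was not tested, so what its Cyp1a1 and Cyp1a2 levels stand for is unknown. The wild type levels were 15.08 at the lowest, 15.23 at the median and 15.25 at the highest with TCDD, against 4.98, 6.00 and 6.95 with corn oil. The knockout difference was 1.26 ± 1.36 (SE, adjusted p = 0.875) over all 3 dosed arrays and -1.18 ± 0.43 (adjusted p = 0.916) without the first. Cyp1a2, its neighbour and a major P450 of unexposed liver, followed the same array: it read 13.27, 11.69 and 11.20 in dosed livers against 11.40, 11.28 and 11.45 in corn oil livers. Its difference of 0.67 ± 0.34 (adjusted p = 0.875) became 0.06 ± 0.10 without the first array. On that array Cyp1a2 reached the level of wild type livers given corn oil, 13.22 to 13.37, and not the 15.54 to 15.68 of wild type livers given TCDD.

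Tiparp encodes a member of the poly(ADP-ribose) polymerase family that dampens receptor signalling. Its main probe set (1426721_s_at) read 5.18, 4.99 and 5.05 in dosed knockout livers against 4.68, 4.68 and 4.67 in corn oil knockout livers, a difference of 0.40 ± 0.29 (adjusted p = 0.875), where wild type livers differed by 5.78 ± 0.21. The groups did not overlap for this dim probe set. Its dosed values were near the top of the range of wild type livers given corn oil (3.94 to 5.17, median 4.77). The knockout groups overlapped for both other probe sets. The first dosed array was the highest of the 6 for each of the 3, with 4.87 and 5.41 for the others. Cyp1b1, a P450 that is nearly silent in unexposed liver, stayed at the floor of the scale in every knockout liver: 3.40, 3.39 and 3.36 in dosed and 3.40, 3.45 and 3.41 in corn oil livers, with 8.86 to 9.97 in wild type livers given TCDD. A second Cyp1b1 probe set (1416612_at) read 2.41 on the first dosed array and at most 2.01 on the other 5. The receptor repressor gene Ahrr was flat, at 2.40, 2.41 and 2.40 in dosed livers and 2.41, 2.43 and 2.42 in corn oil livers.

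Nqo1 encodes a quinone reductase that both AHR and NRF2 control. It varied as much within the groups as between them, with 4.38, 3.28 and 4.13 in dosed knockout livers against 3.30, 4.14 and 4.13 in corn oil knockout livers. Nfe2l2, the gene of NRF2 itself, read 10.42, 10.28 and 10.85 in dosed livers against 9.95, 10.26 and 9.99 in corn oil livers. All dosed values were above all corn oil values, narrowly so for dosed replicate 2, and the difference of 0.45 ± 0.15 (adjusted p = 0.875) was under the 2.39 ± 0.11 of wild type livers (interaction adjusted p = 5.67e-05). Among the other targets, Pcp4l1, Pmm1, Tuba8, Fmo2, Selenbp1, Xdh and Ugdh differed by between -0.31 and 0.05 in knockout livers, where wild type differences ran between 1.59 and 6.28. The 95% interval of the knockout difference lay below 1 for 12 of the 15 targets that rose in wild type, and for 13 it lay below 0.5 times the wild type effect.

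**Figure D1:**
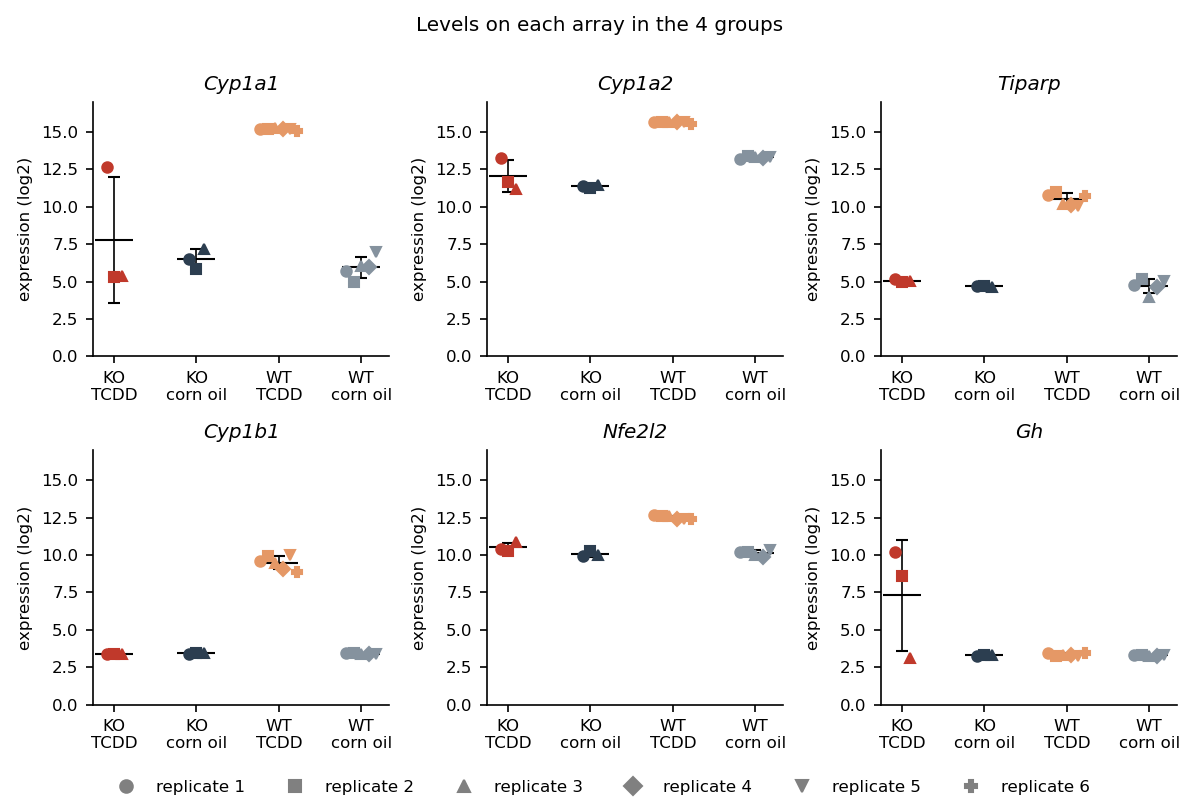
Levels (log2, vertical axis) of 5 receptor targets and of Gh on every array, by group (horizontal axis), with one symbol per replicate number, the group mean as a bar and its SD as whiskers. Knockout TCDD replicate 1 reads 12.64 for Cyp1a1 and the other dosed knockout arrays 5.32 and 5.34; Gh is high on knockout TCDD replicates 1 and 2 alone.

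The core of a dioxin response element is the pentamer GCGTG, read as CACGC on the other strand. Promoter sequences of RefSeq (GRCm38.p6, 250 bases before to 50 after each start) are shown for Cyp1a1 and Tiparp, whose dosed knockout values have just been given, and for Serpina12, the largest called difference. Each holds 1 copy of the pentamer, in capitals.
Cyp1a1, chr9:57697363-57697662, plus strand: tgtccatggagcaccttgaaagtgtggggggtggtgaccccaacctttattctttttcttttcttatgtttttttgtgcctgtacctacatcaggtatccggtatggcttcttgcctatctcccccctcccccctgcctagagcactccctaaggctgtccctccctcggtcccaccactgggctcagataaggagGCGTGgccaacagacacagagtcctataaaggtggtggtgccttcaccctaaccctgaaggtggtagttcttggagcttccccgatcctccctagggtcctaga
Tiparp, chr3:65528197-65528496, plus strand: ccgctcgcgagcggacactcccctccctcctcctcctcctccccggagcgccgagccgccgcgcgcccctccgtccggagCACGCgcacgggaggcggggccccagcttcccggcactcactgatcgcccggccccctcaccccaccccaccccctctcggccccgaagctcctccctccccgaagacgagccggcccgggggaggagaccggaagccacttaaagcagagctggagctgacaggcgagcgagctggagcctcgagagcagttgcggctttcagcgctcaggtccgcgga
Serpina12, chr12:104044394-104044693, minus strand: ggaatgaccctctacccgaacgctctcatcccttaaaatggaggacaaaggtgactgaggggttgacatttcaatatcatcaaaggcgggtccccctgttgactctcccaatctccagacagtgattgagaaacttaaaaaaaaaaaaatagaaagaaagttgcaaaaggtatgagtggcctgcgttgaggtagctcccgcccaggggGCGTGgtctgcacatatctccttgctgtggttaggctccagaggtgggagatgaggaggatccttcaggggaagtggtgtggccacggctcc
The motif begins 54 bases before the start in Cyp1a1, 170 before it in Tiparp and 42 before it in Serpina12. On either strand it occurs in the promoter of 35.2% of all 27025 genes of the table. It occurs in 9 of the 15 measured targets that matched and in 3 of the 5 called genes that matched. Of the 24 largest differences described below, 22 matched and 12 hold it. Letters that match are a description and no evidence of binding.

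The genes that responded in wild type livers were then read in knockout livers. TCDD raised 683 and lowered 466 genes in wild type livers (4.18% of probe sets were called there), and none of these genes was called in knockout. At an unadjusted p under 0.05, 33 of the 683 (4.83%) and 34 of the 466 (7.30%) passed in knockout, beside 3.28% of all genes, and 286 and 241 of them, passing or not, had the sign of their wild type change. Without wild type TCDD replicate 6 there were 624 raised and 500 lowered genes, none called in knockout. The 134 genes raised at least 2-fold in wild type had a median difference of 1.52 there and of 0.03 in knockout, and 75 of them had a positive sign in knockout. For the 38 raised at least 4-fold the medians were 3.08 and 0.05. The difference between the genotypes' effects was called for 32 (31 of 38 without wild type TCDD replicate 6), beside 1.63% of all genes. The wild type change that chose these genes is part of that difference, so the count is partly fixed by the choice. The 42 genes lowered at least 2-fold had medians of -1.26 and 0.05. Serpina7, which encodes thyroxine-binding globulin and fell most in wild type (-4.91), read 8.99, 8.55 and 9.18 in dosed knockout livers against 7.84, 9.28 and 9.20 in corn oil knockout livers. Of the genes called and changed at least 2-fold in wild type, Cyp1a1 (1.26 ± 1.36, high on the first dosed array) and Acot3 (-1.12 ± 0.68) were the only ones with a knockout difference of 1 or more in size, and neither was called. Acot3, a peroxisomal acyl-CoA thioesterase gene that rose by 3.71 in wild type, read 5.08, 4.01 and 4.65 in dosed knockout livers against 4.77, 6.55 and 5.78 in corn oil knockout livers. Those groups overlap.

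**Figure D2:**
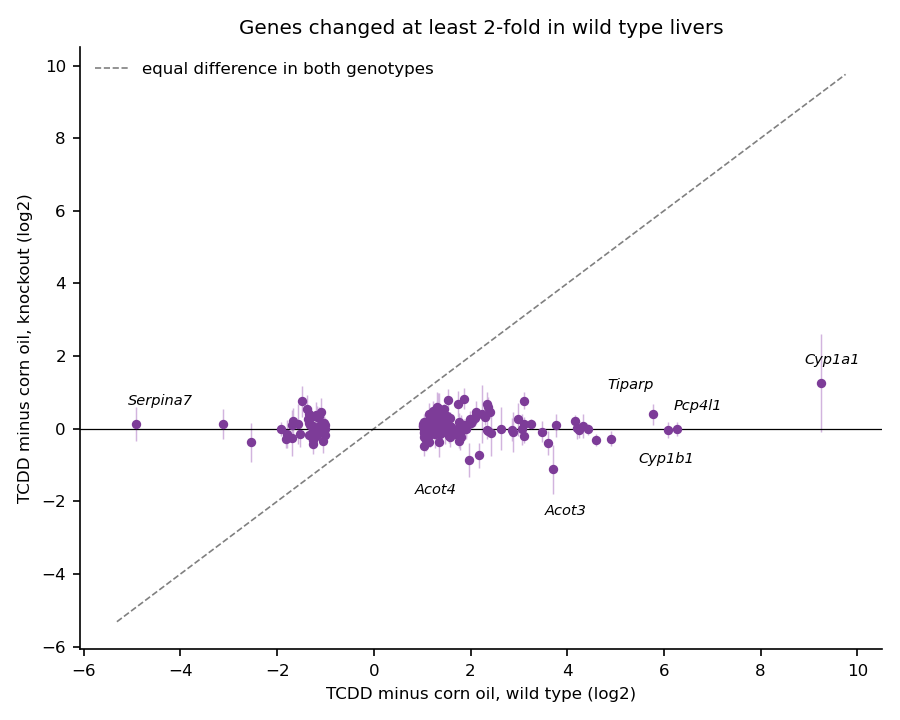
TCDD minus corn oil in knockout livers (log2, vertical axis, with SE) against the same difference in wild type livers (log2, horizontal axis) for the 134 genes raised and 42 lowered at least 2-fold and called in wild type; the dashed line marks equal differences. The knockout differences lie between -1.12 and 1.26 while the wild type differences reach 9.26.

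Within the knockout, 6 probe sets of 45037 were called by limma (0.0133%), all higher with TCDD and none lower (0.00%), beside 1263 at an unadjusted p under 0.05. By their main probe set, 2 of 18193 genes were called (0.0110%). The largest was Serpina12 (1421092_at, chromosome 12), the gene of the adipokine vaspin, a serine protease inhibitor that male mouse liver expresses. It read 6.00, 6.14 and 6.16 in dosed knockout livers against 4.47, 3.71 and 3.67 in corn oil knockout livers. The dosed arrays lay close together and clear of all corn oil arrays, and the difference was 2.14 ± 0.29 (SE, n = 3 each, adjusted p = 0.028). The corn oil mean, 3.95, is near the floor of the scale, so no fold is drawn from it. In wild type livers the same probe set read 11.06 to 12.43 with TCDD and 11.38 to 12.06 with corn oil, so the dosed knockout livers stayed well below wild type. The TCDD effect differed between genotypes by 2.27 ± 0.36 (adjusted p = 0.005, and 0.009 without wild type TCDD replicate 6). That test contains the knockout difference by which the gene was called, so it is no separate evidence. A second Serpina12 probe set (1421091_at) read 2.29 to 2.60 in dosed and 2.49 to 2.62 in corn oil knockout livers and showed no such difference. The call was lost without corn oil replicate 3 (adjusted p = 0.0501), without wild type TCDD replicate 6 (0.0546), with scan day as a block (0.279), with that block and without dosed replicate 1 (0.204), in a fit of the knockout arrays alone (0.340) and with a replicate block (0.493). The difference itself lay between 2.0 and 2.4 in all settings run, with a sign that the separation of the groups fixes in most of them.

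All 6 called probe sets had a corn oil mean under 4, at the dim end of a scale on which 63.8% of probe sets average under 4, and the 5 other than Serpina12 read 4.28 or less on every knockout array. Vegfc, a growth factor of lymphatic vessels, read 3.26, 3.23 and 3.62 on the called probe set (1440739_at) in dosed livers against 2.17, 2.20 and 2.63 in corn oil livers, a difference of 1.03 ± 0.12 (adjusted p = 0.017). A second Vegfc probe set (1439766_x_at) read 4.54, 4.58 and 4.72 against 4.22, 4.01 and 3.99, with a difference of 0.54 ± 0.15 that was not called (adjusted p = 0.875), and the brightest (1419417_at) differed by 0.21 ± 0.12. Jag1, a Notch ligand, read 4.28, 3.95 and 4.25 in dosed livers against 3.54, 3.57 and 3.55 in corn oil livers (1421106_at, adjusted p = 0.021). Its brighter probe set (1434070_at) overlapped between the groups, at 6.44, 6.51 and 6.63 in dosed and 6.23, 6.70 and 5.75 in corn oil livers.

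Mrpl47, a gene of the mitochondrial ribosome, differed by 0.59 ± 0.08 on a dim probe set (1443915_at, adjusted p = 0.032), whereas its bright probe set (1429054_at) read 7.86, 7.41 and 7.79 in dosed and 7.84, 7.72 and 7.88 in corn oil livers. Ptgfrn, which encodes a membrane partner of tetraspanins, differed by 0.23 ± 0.03 (adjusted p = 0.028). Chd7, a chromatin remodeller, differed by 0.20 ± 0.02, at 2.15, 2.03 and 2.02 in dosed livers against 1.87 on each corn oil array (adjusted p = 0.021). For 5 of the 6 called genes, all but Serpina12, every knockout array was thus under a level of 6, and no other probe set of the same gene was called. All 6 calls were lost with scan day as a block and in a fit of the knockout arrays alone (adjusted p = 0.340 for each in that fit).

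**Figure D3:**
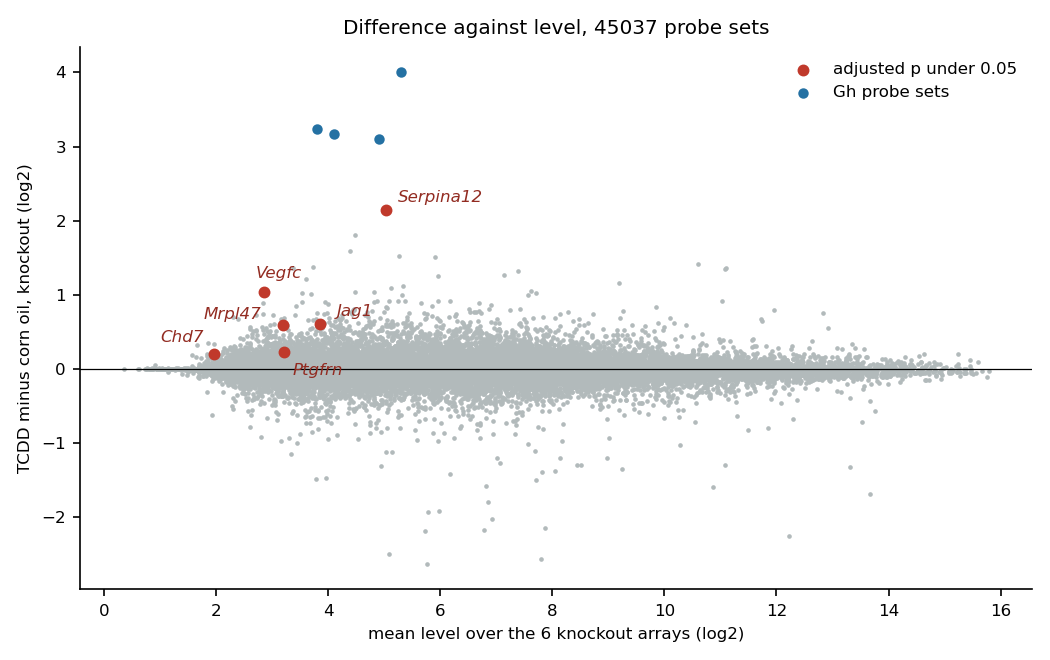
Difference between TCDD and corn oil in knockout livers (log2, vertical axis) against the mean level over the 6 knockout arrays (log2, horizontal axis) for 45037 probe sets, with the 6 called probe sets in red and the 4 probe sets of Gh in blue. Serpina12 at 2.14 is the largest called difference, and 5 of the 6 called probe sets lie at the dim end.

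The small number of calls came with a stated precision. For the 7160 genes with a level of 6 or more in either knockout group, the median half-width of the 95% interval of the difference was 0.296, and it was under 1 for 97.6% of them. Only 22 of these genes differed by 1 or more, 9 higher and 13 lower with TCDD, and in 20 of the 22 the arrays of one group also ranged over 1 or more. The median size of the difference was 0.082 in knockout and 0.166 in wild type livers. All dosed values were above all corn oil values for 230 of the 7160 genes (3.21%) and below them for 412 (5.75%). Over all probe sets, the dim ones included, the dosed values were all higher for 1.11% and all lower for 44.6%, so separation at dim levels is not counted.

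The largest differences among genes of level 6 or more whose groups did not overlap are given as a description, since the groups' separation chose them, and Serpina12 alone of the 24 was called. Interaction p-values given for some of them rest in part on the knockout difference that chose them. After Serpina12 the higher genes began with Gse1, a nuclear coregulator gene, at 8.09, 8.04 and 8.50 in dosed livers against 7.27, 7.43 and 6.88 in corn oil livers (1.02 ± 0.39). Dpt, of the extracellular matrix protein dermatopontin, read 7.05, 6.25 and 6.57 against 5.87, 5.63 and 5.63 in corn oil livers (0.91 ± 0.39). Smad3, a transducer of TGF-beta signals, read 6.85, 7.43 and 7.03 against 5.68, 6.66 and 6.69 (0.76 ± 0.24). The TGF-beta inducible gene Tsc22d1 and Spc25 of the kinetochore differed by 0.83 ± 0.27 and 0.88 ± 0.40.

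The Frizzled receptors for Wnt ligands Fzd5 and Fzd7 differed by 0.67 ± 0.19 and 0.69 ± 0.36. Rnf43, a ligase that removes Frizzled from the membrane, differed by 0.76 ± 0.39, and the FGF receptor gene Fgfr3 by 0.61 ± 0.20. Tbc1d2b, a gene with a Rab GTPase-activating domain, read 8.55, 8.90 and 8.98 in dosed livers against 8.27, 7.98 and 8.18 in corn oil livers (0.67 ± 0.15, adjusted p = 0.711). Wild type livers fell by 0.66 there, and the effects of the genotypes differed (adjusted p = 0.002, and 0.003 without wild type TCDD replicate 6). Rassf5, a Ras effector gene, likewise differed by 0.60 ± 0.19 in knockout and by -0.84 in wild type (interaction adjusted p = 0.008, and 0.013 without wild type TCDD replicate 6).

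The lower genes began with serum amyloid A, an acute phase protein that the liver releases in inflammation. Saa2 read 11.55, 10.80 and 10.93 in dosed knockout livers against 11.84, 14.51 and 13.69 in corn oil knockout livers (-2.25 ± 1.19), and Saa1 read 13.44, 12.55 and 12.48 against 13.54, 15.10 and 14.89 (-1.69 ± 1.03). One corn oil array was near the dosed ones in both genes, and their probe sets may share transcripts of these near-identical copies. Serpina3n, an acute phase protease inhibitor, differed by -0.80 ± 0.36. Wild type livers with corn oil also spread widely in Saa2, over 8.44 to 14.69.

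Among metabolic genes, Aacs, which activates acetoacetate for lipid synthesis, differed by -1.21 ± 0.77, and the fatty acid hydroxylase gene Cyp4a14 by -0.72 ± 0.43. Acot4, a neighbour of Acot3, read 5.90, 5.02 and 5.99 in dosed livers against 6.24, 6.72 and 6.55 in corn oil livers (-0.87 ± 0.47), whereas it rose by 1.97 in wild type (interaction adjusted p = 0.032, and 0.0497 without wild type TCDD replicate 6). Nrep, first described in regenerating neurons, read 6.93, 6.31 and 7.14 against 8.87, 9.62 and 8.34 (-2.15 ± 0.59), and the galactosyltransferase gene B3galt1 read 4.98, 4.96 and 4.51 against 7.61, 6.09 and 6.53 (-1.93 ± 0.61). Tgm1, Ildr2 and the non-coding RNA gene Snhg1 differed by -1.41, -0.71 and -0.79.

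Igfals had the smallest p of the lower genes. It encodes the acid-labile subunit that keeps IGF-1 in serum complexes, and read 9.89, 9.53 and 9.58 in dosed livers against 10.32, 10.46 and 10.22 in corn oil livers (-0.67 ± 0.13, adjusted p = 0.444). Wild type livers fell by 0.47 (adjusted p = 0.012). Arnt, the partner of AHR, read 8.33, 8.10 and 8.45 against 8.60 on each corn oil array (1419996_s_at, -0.31 ± 0.07, adjusted p = 0.806). The groups overlapped on the next brightest Arnt probe set (1437042_at, -0.19 ± 0.14) and on 1421721_a_at (0.01 ± 0.39). Near the floor, 1425064_at and 1449696_at did not overlap but each differed by only -0.02.

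**Figure D4:**
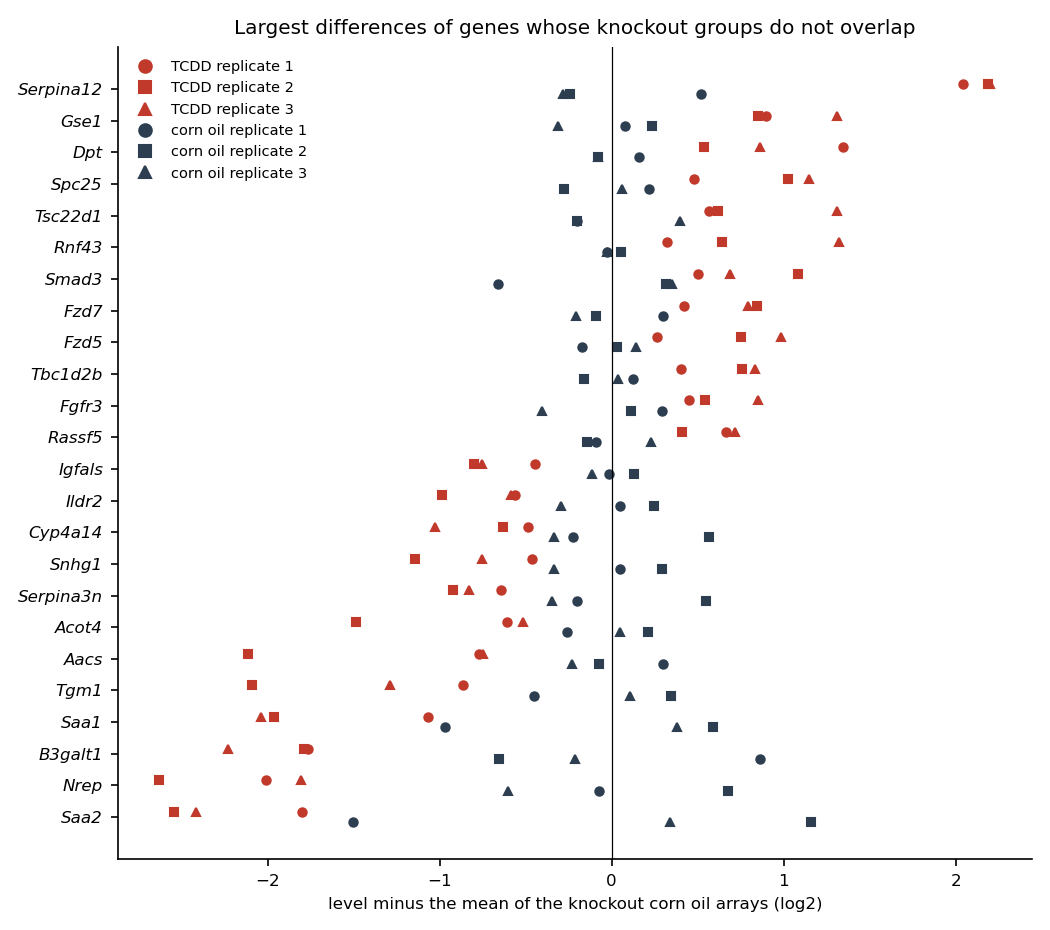
Level of each knockout array minus the mean of the knockout corn oil arrays (log2, horizontal axis) for the 12 largest differences each way among genes of level 6 or more whose groups do not overlap (vertical axis), with TCDD in red and corn oil in dark blue. Serpina12 stands clear of its corn oil arrays, while in Saa1 and Saa2 corn oil replicate 1 lies next to the dosed arrays.

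A transcript that liver is not known for stood out on some dosed arrays, and whether it came from these livers was not tested. Gh, the gene of growth hormone, which the pituitary makes, had the largest difference of all genes in the comparison, 4.01 ± 1.14 (1460613_x_at, adjusted p = 0.875). It read 10.21 and 8.58 on dosed replicates 1 and 2 and 3.14 on dosed replicate 3, against 3.27, 3.34 and 3.28 in corn oil knockout livers and 3.23 to 3.45 in wild type livers. All 4 Gh probe sets showed the same 2 arrays high. Prolactin (Prl), another pituitary hormone gene, read 3.79 on dosed replicate 1 and 2.79 to 2.85 on the 15 arrays other than dosed replicates 1 and 2. The other pituitary hormone genes looked up after Gh was seen stayed at their floor on replicates 1 and 2, with Pomc at 1.54 and 1.53 (1433800_a_at), Cga at 1.66 and 1.65 and Tshb at 3.12 and 3.13. Both arrays share scan day 2 with corn oil replicate 3 and with 7 wild type arrays, on which Gh was not raised. The only other gene with a probe set on which both arrays lay outside the other 4 knockout arrays by 1 or more was Etnppl, of an enzyme that breaks down phosphoethanolamine, at 4.79 and 4.68 against 6.97 to 9.05, while its brighter main probe set differed by -0.06 ± 0.22 between the groups.

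Dosed replicate 1, singled out by its Cyp1a1 and Cyp1a2, was compared with the other knockout arrays on further genes. It carried the knockout side of the genes that separate the genotypes, in 19 of 20 such genes, and lay outside all wild type arrays in 19. Of the 36 genes other than Cyp1a1 and Cyp1a2 raised at least 4-fold by TCDD in wild type it was the highest knockout array for 9, where each of the other 5 arrays was the highest for 3 to 10. By the main probe set of each gene, it stood above the other 5 by 0.5 or more for 1 of the 36, against 0 or 1 on each other array. Across all probe sets, Cyp1a1 and Cyp1a2 included, it stood outside the other 5 by 1 or more upwards for 14 and downwards for 9, fewer than dosed replicate 3 with 93 and 22. After Cyp1a1, those that it led by most were Gh, Fmr1nb and Cyp26a1, a retinoic acid hydroxylase gene that read 11.49, 9.55 and 8.29 in dosed livers against 7.97, 8.22 and 9.67 in corn oil livers. The 14 also held Cyp1a2 and a Tiparp probe set that is not the main one (1452161_at). That Tiparp probe set read 5.41 on dosed replicate 1 and at most 4.04 on the other 5 knockout arrays.

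Without dosed replicate 1, 24 probe sets were called (0.0533%), 21 higher (0.0466%) and 3 lower (0.00666%), and 5 of the 6 earlier calls were among them. In the same setting 10 of 18193 genes were called by their main probe set (0.0550%). Qser1, a gene of a DNA-binding protein, read 5.77 and 6.36 on the dosed arrays left and 4.97 on replicate 1, against 4.86, 4.61 and 4.87 in corn oil livers, a difference without replicate 1 of 1.28 ± 0.17 (adjusted p = 0.023). Nrg4, a neuregulin that acts on ErbB4, read 3.82, 4.53 and 4.20 in all dosed livers against 3.17, 3.49 and 3.62 in corn oil livers (0.94 ± 0.10 without replicate 1, adjusted p = 0.003). Lama3, a laminin chain gene, differed by 0.78 ± 0.07 at levels under 3.3. Of the lower genes, Gpat3, which encodes the enzyme of the first step of triglyceride synthesis, read 2.87, 2.26 and 2.60 against 3.13, 3.18 and 3.42 (-0.81 ± 0.08, adjusted p = 0.002). The zinc finger gene Zfp629 differed by -0.36 ± 0.06. Nrg4 and Gpat3 are dim, at 2.52 to 2.57 and 2.16 to 2.22 in all wild type livers, so their differences are among the least certain.

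Lists of pathway genes were next described by counts and medians. Of 477 measured members of 27 lists, 1 was called, Serpina12, and 33 (6.92%) had an unadjusted p under 0.05, beside 3.28% of all genes. Of their 364 members at level 6 or more, 11 had all dosed values above all corn oil values (3.02%, background 3.21%) and 29 had them below (7.97%, background 5.75%). Medians ran from -0.12 to 0.28, with -0.02 over all genes.

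The highest median was that of genes expressed more in male than in female liver, many of them set by pulses of growth hormone. Of its 15 measured members 13 had a positive difference, with a median of 0.28, and 1 was called, Serpina12. Cyp2d9, a P450 gene of male liver, read 13.21, 13.64 and 13.71 in dosed livers against 13.19, 13.13 and 13.23 in corn oil livers (0.34 ± 0.10, adjusted p = 0.875), and was called without dosed replicate 1 (0.49 ± 0.07, adjusted p = 0.023). Cyp7b1, an oxysterol hydroxylase gene, read 12.83, 13.30 and 13.46 against 12.95, 12.24 and 12.16 (0.75 ± 0.28), and the steroid reductase gene Hsd3b5 read 9.27, 10.25 and 11.04 against 9.45, 9.40 and 9.86 (0.62 ± 0.31). The mean over the 15 genes was 11.08, 11.58 and 11.55 in dosed livers against 11.10, 10.93 and 11.06 in corn oil livers. Dosed replicate 1 lay among the corn oil arrays and both others above them. Gh transcript was high on dosed replicates 1 and 2 and at the floor on the other 4, and its part in the list was not tested. Over all genes 70.4% had a negative difference, and 51.6% of those at level 6 or more. Of the 10 genes biased to females, of which 4 were at level 6 or more, 8 had one (80.0%, median -0.07), among them Acot3, Cyp4a14 and, at the floor, Cyp2b9 at 2.16 to 2.17 against 2.18 to 2.63. The growth hormone and IGF list held 11 of 16 negative members (68.8%, near that of all genes, median -0.10), with Igfals, given above, and Onecut1, a hepatocyte transcription factor gene that ranged over 4.93 to 7.11 in dosed and 5.38 to 9.98 in corn oil livers.

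Of 32 acute phase genes 27 had a negative difference (84.4%), with a median of -0.08, and 5 of the 26 at level 6 or more (19.2%, background 5.75%) had all dosed values below all corn oil values, Saa1, Saa2 and Serpina3n among them. Lcn2, the gene of lipocalin 2 and also induced in inflammation, read 7.51, 5.89 and 6.14 against 7.09, 11.25 and 8.91, which overlap. The PPARA list, of genes of fatty acid oxidation, had the lowest median (-0.12, with 19 of 25 negative, or 76.0%). Its member with the smallest p was Acadm, of medium-chain acyl-CoA dehydrogenase, at 12.08, 12.19 and 11.98 against 12.21, 12.44 and 12.17 (-0.19 ± 0.07). In the complement and coagulation list F7 and F11, of clotting factors VII and XI, differed in opposite directions, by -0.22 ± 0.07 and 0.35 ± 0.11. Adipor2, a receptor of adiponectin, read 11.50, 11.49 and 11.39 against 11.70, 11.75 and 11.71 (-0.26 ± 0.06, adjusted p = 0.711).

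The NRF2 list had 16 of 26 members positive and a median of 0.02, and Nfe2l2 alone had an unadjusted p under 0.05. CAR and PXR targets, cholesterol synthesis, bile acid, amino acid, p53 and clock lists had medians between -0.10 and 0.01. Heat shock genes had a median of 0.13 that came with wide ranges within the groups: Hspa1b read 11, 12.17 and 12.15 in dosed livers against 11.66, 11.81 and 7.78 in corn oil livers. Metallothioneins, which bind zinc and copper, ranged as widely, with Mt2 at 12.37, 11.76 and 9.12 in dosed livers against 12.70, 10.69 and 12.35 in corn oil livers.

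The cell cycle list had 4 members higher and 1 lower at an unadjusted p under 0.05, of 29, beside 3.28% of all genes in either direction. It was mostly dim, with a list mean of 4.31 to 4.67 on the knockout arrays. Here dosed replicate 3 stood apart: Rrm2, of ribonucleotide reductase, read 6.63 on it and 4.23 and 4.67 on the other dosed arrays, against 4.23, 2.79 and 3.75 in corn oil livers. Cdk1 and Birc5, of mitosis, read 3.74 and 3.89 on replicate 3 and at most 2.98 on any other knockout array. Mcm6, of the replicative helicase, read 5.06, 4.93 and 5.43 against 4.67, 4.70 and 4.78 (0.43 ± 0.12) and was higher on all dosed arrays. Dosed replicate 3 was scanned on a day with no other knockout array, and the part of scan day in this was not tested.

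Of the 11 marker lists of cell types none held a called gene. Markers of stellate cells and fibroblasts had the largest median (0.08, 7 of 12 positive), with a mean level of 7.19, 6.92 and 7.06 in dosed against 6.86, 6.88 and 6.93 in corn oil livers. The collagen genes Col1a2, at 7.11, 7.0 and 7.42 against 6.87, 6.72 and 6.69, and Col1a1, at 6.38, 5.51 and 5.87 against 5.39, 5.38 and 5.53, differed by 0.42 ± 0.14 and 0.49 ± 0.19, and the groups overlapped for Col1a1. Dpt, a fibroblast matrix gene given above that is not in the list, was highest on dosed replicate 1, as was Col1a1, whereas Col1a2 was highest on dosed replicate 3. In whole liver, more cells of a type and more RNA per cell cannot be told apart, and the part of cell composition was not tested. Kdr, a receptor on endothelial cells, read 6.56, 6.36 and 6.39 in dosed and 6.85, 6.94 and 6.71 in corn oil livers (-0.39 ± 0.13), while the endothelial list as a whole had a median of -0.03 and the Kupffer cell list one of -0.10. Markers of T, B and neutrophil cells stayed near the floor, with list means of 2.81 to 4.45 on all knockout arrays.

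**Figure D5:**
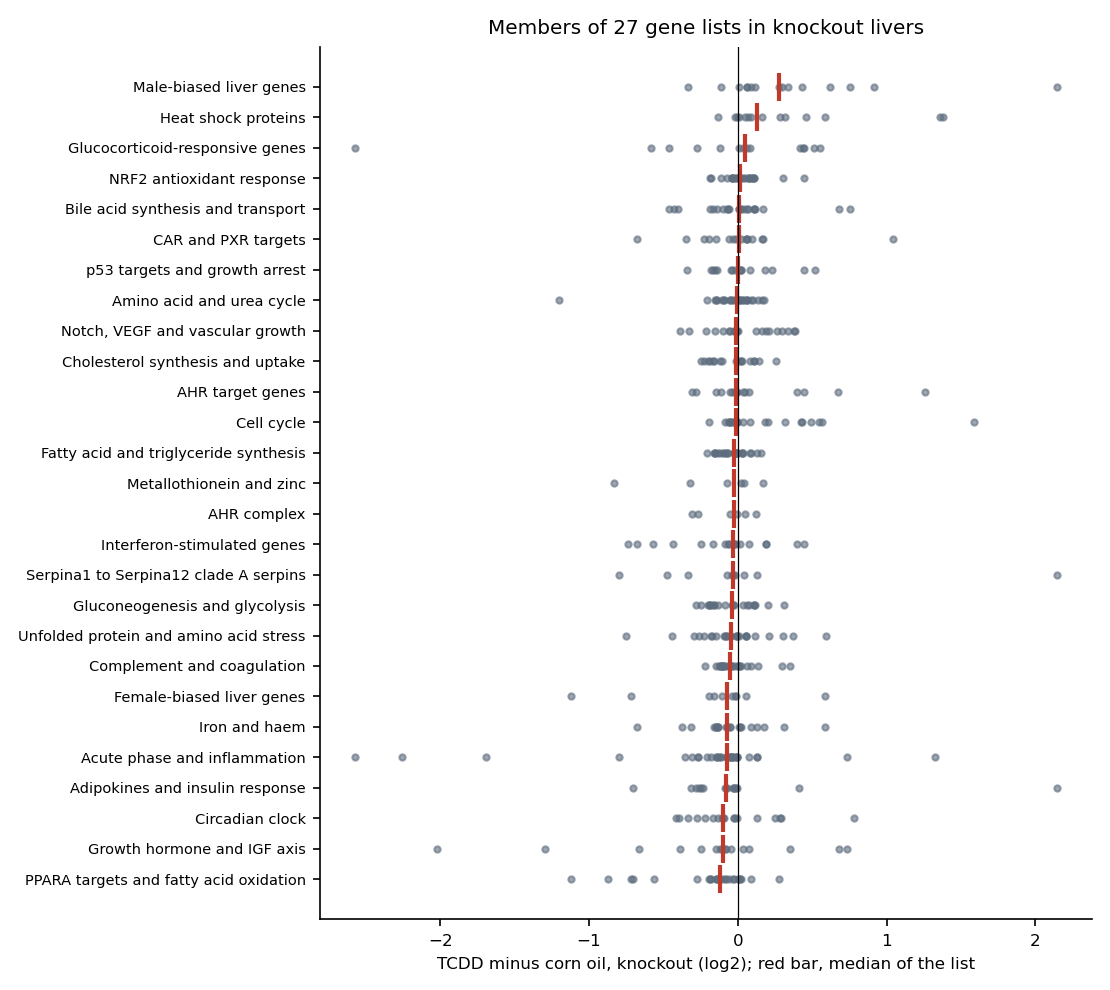
Difference between TCDD and corn oil in knockout livers (log2, horizontal axis) for the measured members (points) of 27 gene lists (vertical axis), with the median of each list as a red bar. Medians lie between -0.12 and 0.28, and Serpina12 at 2.14, in 3 of the lists, is the only called member.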

How the data were processed

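Per the submitters' processing notes, the authors made the values with affy 1.5.8, RMA and GCRMA and it is unknown which of RMA and GCRMA made the deposited log2 values. The deposited table holds 1 log2 expression value per probe set and array, normalized across arrays by the authors, so that a shift common to most genes is hidden. Scan days were read from the deposited scan settings. Of 45101 probe sets 64 controls were left out. By the platform annotation 34945 name 1 gene, and 18193 genes entered as their brightest probe set, by the mean of the 17 arrays.

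The model had 4 group means over the 17 arrays and used limma 3.58.1, under R 4.3.3 (eBayes, 13 residual and 1.00 prior degrees of freedom), with Benjamini-Hochberg adjustment over 45037 probe sets. The contrasts were TCDD minus corn oil in knockout, the same in wild type, and their difference. The code was tested on simulated data. The members, the gene lists and the tests were chosen with earlier results of these data known. Genes were drawn by rule: all called, the 12 largest differences each way among genes of level 6 or more whose groups do not overlap, all receptor targets, the 5 largest each way called without dosed replicate 1, and up to 3 of smallest p in each list. Some of the genes drawn, such as the target Gsta2, are not described here. Clones were not named, and any other gene named was chosen after its values were seen. Deviations of same-numbered knockout arrays from their group means correlated at -0.17, -0.27 and -0.22, and those of differently numbered arrays at 0.06 to 0.18. Deviations from means of 3 arrays depend on each other, so these values cannot settle whether the arrays were paired. The main model did not pair them. Precision is limited by the number of arrays, which carry no read depth.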

Additional observations from a re-analysis of the deposited data

Results flagged for a closer look

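The TCDD effect differed between genotypes by the interaction test for 24 genes taken from the targets, the called genes and the largest differences, and each value here is the knockout effect minus the wild type effect on the log2 scale. Two-sided adjusted p-values from limma lay under 0.05 throughout. Among receptor targets these differences were -8.0 for Cyp1a1, -6.28 for Pcp4l1, -6.12 for Cyp1b1, -5.38 for Tiparp, -5.18 for Tuba8, -4.90 for Fmo2, -4.44 for Pmm1, -4.26 for Nqo1, -3.08 for Ahrr, -1.95 for Nfe2l2, -1.83 for Xdh, -1.73 for Selenbp1 and -1.55 for Ugdh. For the 6 called genes they were 2.27 for Serpina12, 0.99 for Vegfc, 0.58 for Jag1, 0.57 for Mrpl47, 0.21 for Ptgfrn and 0.20 for Chd7. Of the others, Acot4 differed by -2.84, Rassf5 by 1.43, Tbc1d2b by 1.33, Nrg4 by 0.76 and Gpat3 by -0.67. The called genes and these others were chosen by their knockout difference, which is part of the difference tested. Their passing is thus partly fixed by the choice and is no separate evidence. The test also passed for Acot3 (-4.84) and Serpina7 (5.05), named among the genes changed in wild type. For Tbc1d2b and Rassf5 the knockout effect was positive (0.67 and 0.60) and the wild type effect negative (-0.66 and -0.84). Without wild type TCDD replicate 6, an alternative chosen after seeing the data, 22 of the 24 passed, while Cyp1a1 (adjusted p = 0.051) and Nrg4 (0.059) did not. Age, breeding site and genotype cannot be told apart in these differences.

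In wild type groups, 6 values lay far from the rest of their group by Dixon's test, which flags about 1 group in 20 by chance. The number of groups tested is not given here, so the 6 cannot be set against that rate. TCDD replicate 6, the array with the wide gap between 3′ and 5′ probe sets, read 15.1 for Cyp1a1 and 15.5 for Cyp1a2, the lowest of their groups, and 3.37 for Aldh3a1, the highest. In corn oil livers Lrat read 6.12 on replicate 2, Pcp4l1 read 2.67 on replicate 4 and Pmm1 read 3.45 on replicate 3. Groups of 3 knockout arrays were not tested this way.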

How the results depend on the processing

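The number of called probe sets (6) moved with the arrays used. It was 7 with quantile normalization, 8 with median centring, 8 with a variance trend and 6 with scan day as a random block. It fell to 1 among probe sets of level 5 or more (Serpina12), to 1 with scan day as a block (a clone) and to 0 with knockout arrays alone and with a replicate block (5516 and 3027 at an unadjusted p under 0.05). It was 51 with array weights, 255 within scan day 2 (where 1 corn oil array is assumed to vary like the other groups), 15 with scan day as a block and without dosed replicate 1, and, added after seeing the data, 801 without both arrays high in Gh, where 1 dosed array is assumed to vary like the other groups. Leaving out 1 knockout array gave 13 to 34, and leaving out wild type TCDD replicate 6 gave 5. The numbers without dosed replicates 1, 2 and 3 were 24, 34 and 25, and without corn oil replicates 1, 2 and 3 they were 13, 29 and 27. The replicate block ended all 6 calls (adjusted p = 0.493 for each). Called list members were 2 without dosed replicate 1, 1 with median centring, and 0 with scan day as a block (26 at an unadjusted p under 0.05) and with probe sets averaged. Targets with a called difference of effects were 14 without dosed replicate 1, 12 with scan day as a block, 13 with median centring and, added after seeing the data, 12 without wild type TCDD replicate 6. Arnt was called with array weights alone (-0.32) and Nfe2l2 without both Gh arrays (0.78). The causes were not tested. With 3 arrays a group, scan days unbalanced and 63.8% of probe sets under a level of 4, small differences of dim genes were the least certain.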

Other observations

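Of 7160 genes at level 6 or more, 237 ranged over at least 1 among the dosed arrays and 270 among the corn oil arrays, against 22 with a difference of at least 1 between the groups. The genes that follow were chosen after their values were seen. The chemokine gene Cxcl1 read 7.60, 10.31 and 6.23 in dosed livers against 4.81, 5.88 and 9.49 in corn oil livers, and the long non-coding RNA Neat1 read 9.95, 10.13 and 10.15 against 12.67, 9.83 and 12.51. Socs2, a feedback inhibitor that growth hormone signalling induces, read 8.74, 8.09 and 6.56 against 9.76, 9.20 and 8.32, which overlap.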
